A study of Homo sapiens with 30 samples.

Results

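After 24 h at 10 µg/ml, THP-1 macrophage-like cells exposed to multi-walled carbon nanotubes (MWCNT) were compared with cells exposed to titanium dioxide nanobelts (TiO2-NB). The members are the arrays whose labels give these materials, this dose and this time, which are 6 of the 30 arrays of the series, 3 for each material. All 10050 genes that could be tested were described, each by a probe set that maps to that gene alone. The cells of every group are the THP-1 line, a human acute monocytic leukaemia line, turned into adherent macrophage-like cells with 82 nM phorbol 12-myristate 13-acetate (PMA) for 24 h and replated before the particles were added to the medium. The groups used are MWCNT at 10 µg/ml for 24 h, TiO2-NB at 10 µg/ml for 24 h, the same materials at 100 µg/ml for 24 h and at 10 µg/ml for 1 h, and cells kept without particles for 24 h. THP-1 is a single tumour line, so its levels are those of that line and not of primary macrophages. The labels call the 3 arrays of a group biological replicates of this line. Levels are log2 intensities, so a log2 difference of 1 is a doubling, and every difference is MWCNT minus TiO2-NB unless said otherwise.

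MWCNT are rolled sheets of carbon nested in one another, and TiO2-NB are ribbons of a metal oxide. Both are long and stiff, and macrophages take up such particles by phagocytosis and can fail to enclose the longest ones. In macrophages a damaged phagolysosome is known to activate the NLRP3 inflammasome, NF-kappaB induces chemokines that call neutrophils, and type I interferon induces antiviral genes through STAT and IRF factors.

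The arrays of both materials were nearly alike. Array correlations over all genes were 0.9955 to 0.9978 within a material and 0.9943 to 0.9973 between the materials at this dose and time. All 6 macrophage markers on the array (CD14, CSF1R, ITGAX, CHI3L1, GPNMB and LGALS3) lay above the array median on all 6 arrays, with a mean level of 11.38 to 11.46 with MWCNT and 11.41 to 11.46 with TiO2-NB. Of the promonocyte markers 4 of 6 (ELANE, AZU1, CTSG and MYB) were also above the median on all 6 arrays and MPO was below it. Below it on all 6 arrays were 7 of 8 epithelial, 8 of 9 lymphocyte and 6 of 9 fibroblast markers. The mean level of the lymphocyte markers was 5.17 to 5.22 with MWCNT and 5.28 to 5.33 with TiO2-NB, without overlap, which is below every array median. The 3′ minus 5′ difference of the ACTB control probe sets, a measure of RNA degradation, was 0.46 to 0.506 with MWCNT and 0.508 to 0.637 with TiO2-NB, so the groups did not overlap, while that of GAPDH overlapped, at 0.302 to 0.343 with MWCNT and 0.282 to 0.317 with TiO2-NB. The part of RNA quality or of other cells in the results below was not tested.

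At 10 µg/ml 1 gene was called between the materials at an adjusted p under 0.05. It was ANKRD11, which encodes an ankyrin repeat protein of the nucleus that binds chromatin regulators. Its level was 7.29, 7.17 and 7.37 in the 3 MWCNT arrays, against 6.40, 6.09 and 5.55 in the 3 TiO2-NB arrays and 7.33, 7.53 and 7.58 in the 24 h control arrays. The MWCNT arrays overlapped the controls and all 3 TiO2-NB arrays lay below both, with replicate 3 the lowest. In RNA from a whole culture a lower level in all cells and fewer cells that carry the transcript cannot be told apart. The difference was 1.27 ± 0.20 (SE, 95% interval 0.86 to 1.67, adjusted p = 0.0107 by limma with Benjamini-Hochberg adjustment). This is 1 of 10050 genes, or 0.00995% of them.

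The ANKRD11 call depended on which arrays entered the fit. In the fit of only the 6 arrays compared its adjusted p was 0.227, and in the fit of the 9 control and 10 µg/ml arrays with the replicate number as a block it was 0.132, against 0.111 without the block, by limma in all 3. With the block over all 30 arrays it was 0.00339. The adjusted p was 0.215 without TiO2-NB replicate 3, where the difference was 1.04, and it was 0.057, 0.0848 and 0.0979 without TiO2-NB replicate 2, MWCNT replicate 3 or MWCNT replicate 1. A single probe set measures the gene on this array.

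ANKRD11 also differed at the other dose. With 100 µg/ml its level was 7.03, 6.80 and 6.80 with MWCNT and 5.45, 5.35 and 5.53 with TiO2-NB. That difference of 1.44 ± 0.20 passed the test (adjusted p = 1.35e-05 by limma) and shares no array with the one at 10 µg/ml. The change of the difference between the doses was 0.17 ± 0.28 (95% interval -0.40 to 0.74, adjusted p = 0.87 by limma), so a widening with dose was not shown. After 1 h at 10 µg/ml the difference was 0.24 ± 0.20 and was not called. Against the 24 h control, ANKRD11 differed by -0.20 ± 0.20 with MWCNT and fell by 1.47 with TiO2-NB (adjusted p = 0.000978 by limma). These comparisons with control share the control arrays.

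**Figure D1:**
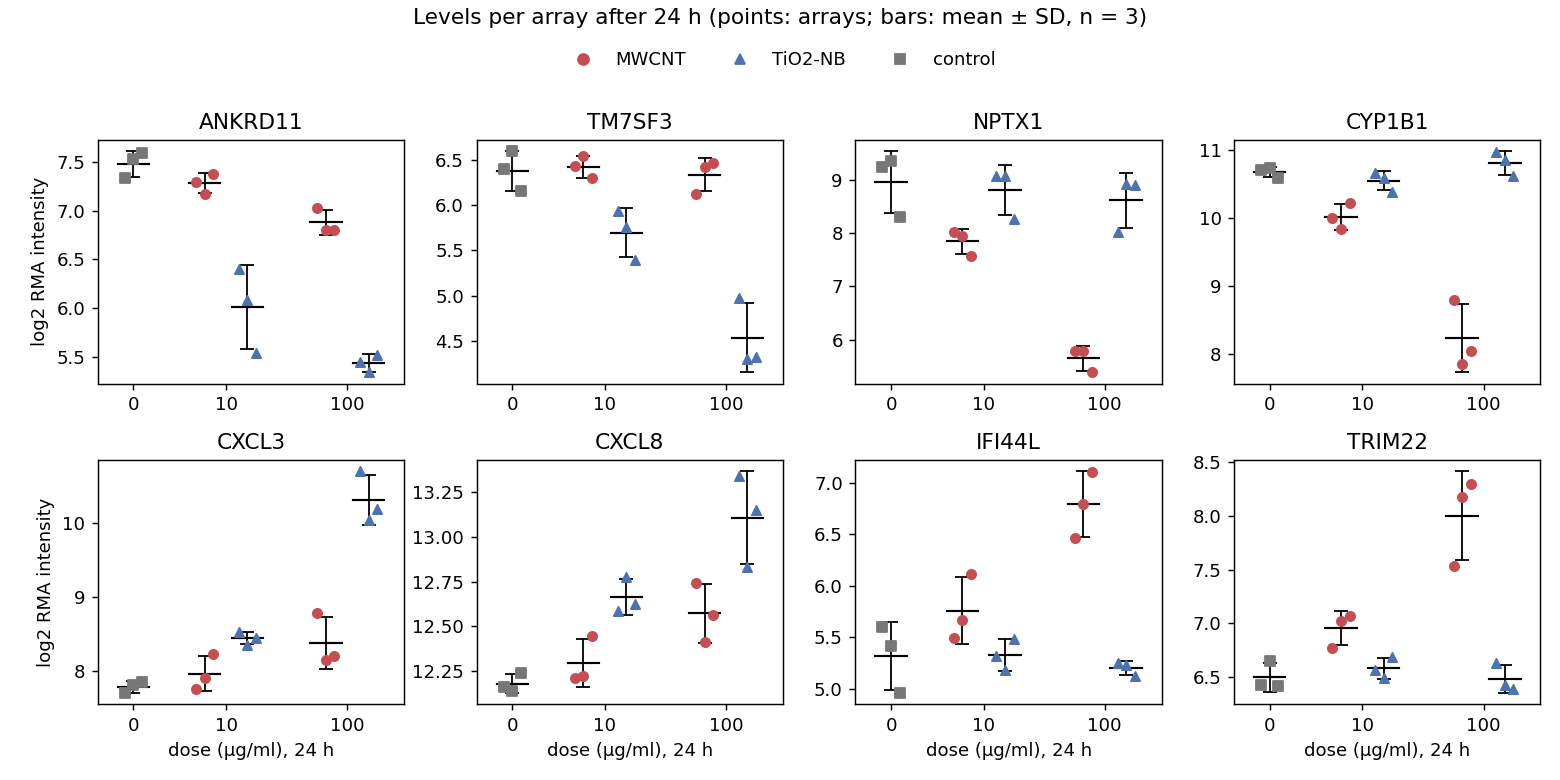
Log2 RMA intensity (vertical axes) of 8 genes in every 24 h array, by dose in µg/ml (horizontal axes); points are arrays, bars the mean ± SD of 3 arrays. At 10 µg/ml the ANKRD11 levels of TiO2-NB (5.55 to 6.40) lie below all MWCNT levels (7.17 to 7.37). For all 8 genes the means of both materials lie closer together at 10 µg/ml than at 100 µg/ml. For ANKRD11 they differ by 1.27 and 1.44.

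The remaining genes gave small differences. The SD of the difference over all genes was 0.141 at this dose and time, against 0.298 at 100 µg/ml and 0.096 after 1 h at 10 µg/ml. The typical 95% interval of a gene reached 0.212 to either side of its difference. This width is not adjusted for the number of genes tested, so it is not the smallest difference that the adjusted test could call. Differences well above it were not called, such as -0.37 ± 0.11 for CXCL8 and 0.73 ± 0.19 for TM7SF3. An uncalled gene is thus not shown to differ by less than 0.212. At least 1.5-fold differences occurred in 23 genes (0.229%), 20 higher with MWCNT (0.199%) and 3 lower (0.0299%). The next lowest adjusted p after ANKRD11 was 0.106. At an unadjusted p under 0.05 there were 1033 genes (10.3%), 428 higher (4.26%) and 605 lower (6.02%) with MWCNT, where no true change would give about 502.5. For 1860 genes (18.5%) the arrays of the materials did not overlap, 913 with MWCNT higher (9.08%) and 947 with MWCNT lower (9.42%).

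The unadjusted genes were spread unevenly over the range of levels. Among the 2513 genes with the lowest mean level 65 were higher and 347 lower with MWCNT, and their median difference was -0.07. Among the 2512 genes with mean levels of 7.56 to 9.18, 168 were higher and 35 lower, with a median of 0.045. After cyclic loess, which removes a trend of the difference with the level, these counts were 124 and 194 for the lowest levels and 84 and 54 for the other class. The part of this trend in the counts of lower genes was not tested.

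**Figure D2:**
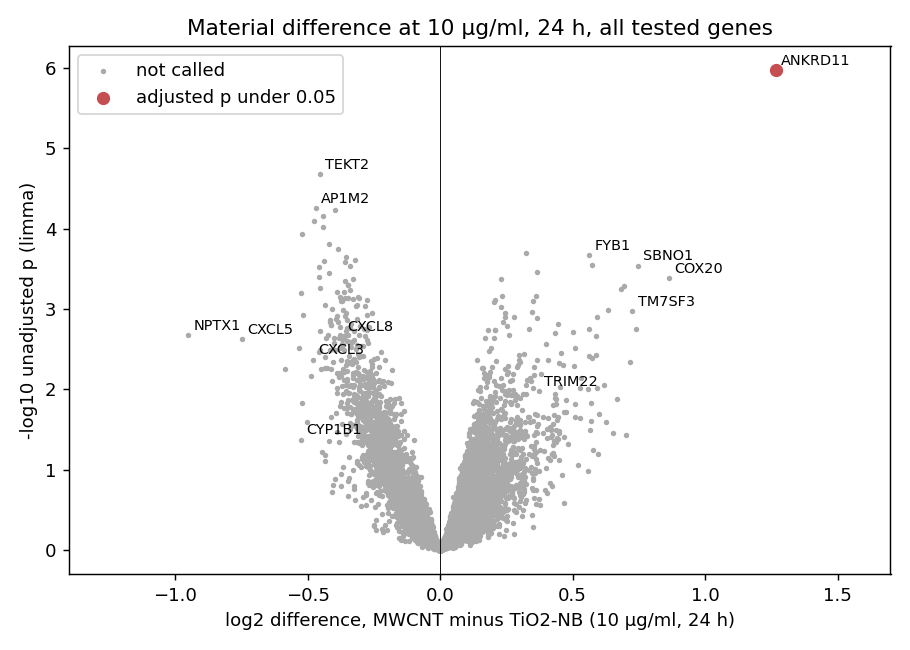
Log2 difference of MWCNT minus TiO2-NB at 10 µg/ml and 24 h (horizontal axis) against minus log10 of the unadjusted limma p (vertical axis) for all 10050 tested genes. ANKRD11, at 1.27, is the 1 called gene and stands apart from the rest, and the other labelled genes were not called.

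Among the genes with a low unadjusted p, several lay lower with TiO2-NB than with MWCNT or in the control. These genes fall outside the naming rule and were chosen after their values were seen. COX20, which encodes an assembly factor of cytochrome c oxidase, had levels of 6.39, 6.53 and 6.78 with MWCNT, against 5.94, 5.76 and 5.42 with TiO2-NB and 6.25, 6.49 and 6.70 in the control. Its difference was 0.86 ± 0.21 at 10 µg/ml (adjusted p = 0.165 by limma, not called) and 1.39 ± 0.21 at 100 µg/ml, where it was called. SBNO1, a member of the strawberry notch family, had 7.49, 7.65 and 7.50 with MWCNT, against 7.20, 6.66 and 6.55 with TiO2-NB and 7.48, 7.79 and 7.50 in the control. For both genes the MWCNT and TiO2-NB arrays did not overlap, and the MWCNT arrays overlapped the control. TiO2-NB replicate 3 was the lowest array for both, as it was for ANKRD11. SBNO1 differed by 0.75 ± 0.18 at 10 µg/ml and by 0.43 ± 0.18 at 100 µg/ml, and was called at neither dose.

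FYB1, an adaptor protein, and SYK, a tyrosine kinase, both act downstream of immune receptors and had a like order. FYB1 levels were 7.29, 7.32 and 7.36 with MWCNT, 6.82, 6.90 and 6.57 with TiO2-NB and 7.09, 7.22 and 7.39 in the control. SYK levels were 8.94, 8.97 and 8.94 with MWCNT, 8.62, 8.56 and 8.57 with TiO2-NB and 8.88, 8.96 and 9.0 in the control. In both, every TiO2-NB array lay below every MWCNT and control array, with replicate 3 the lowest for FYB1 and replicate 2 for SYK. The differences at 10 µg/ml were 0.56 ± 0.13 for FYB1 (adjusted p = 0.151 by limma) and 0.37 ± 0.09 for SYK (adjusted p = 0.163 by limma). At 100 µg/ml they were 1.5 and 0.71, and both were called there. SYK was called at 10 µg/ml when only the 24 h arrays were fitted, together with ANKRD11 and 2 dim genes, TEKT2 and OR12D3.

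TEKT2, a tektin of ciliary microtubules, had the second lowest p of all genes and ran the other way. Its levels were 5.17, 5.18 and 5.23 with MWCNT, 5.79, 5.55 and 5.60 with TiO2-NB and 5.24, 5.30 and 5.30 in the control, so all arrays lay below the array medians of 6.35 to 6.46. The difference was -0.45 ± 0.09 at 10 µg/ml (adjusted p = 0.106 by limma) and -0.12 ± 0.09 at 100 µg/ml.

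A list of 30 genes was taken by name from earlier results of these data at 100 µg/ml. Their order at 100 µg/ml is thus not evidence here, while their values at 10 µg/ml come from other arrays. Between the materials at 100 µg/ml, 13 of the 30 were called higher and 12 lower with MWCNT, so the list also holds genes not called there. TM7SF3, a membrane protein with 7 predicted membrane spans, had 6.43, 6.54 and 6.29 with MWCNT, 5.93, 5.76 and 5.40 with TiO2-NB and 6.39, 6.59 and 6.15 in the control. NPTX1, a neuronal pentraxin, had 8.02, 7.94 and 7.58 with MWCNT, 9.06, 9.07 and 8.26 with TiO2-NB and 9.24, 9.35 and 8.30 in the control. For TM7SF3 all TiO2-NB arrays lay below all control arrays, with replicate 3 the lowest, and for NPTX1 all MWCNT arrays did. Neither of these comparisons with control was called (adjusted p = 0.69 and 0.684 by limma). In both genes the arrays of the materials did not overlap. TM7SF3 differed by 0.73 ± 0.19 (95% interval 0.32 to 1.13, adjusted p = 0.179 by limma) and NPTX1 by -0.95 ± 0.28 (-1.52 to -0.38, adjusted p = 0.196 by limma), so neither was called. Their differences at 100 µg/ml were 1.80 and -2.95.

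IL6R, the receptor chain that binds interleukin 6, differed by 0.70 ± 0.32, and by 0.36 without TiO2-NB replicate 3. Its levels were 9.85, 9.89 and 9.88 with MWCNT, and 9.60, 9.44 and 8.49 with TiO2-NB, where that array was the lowest. NAA15, a subunit of an N-terminal acetyltransferase, differed by 0.58 ± 0.29 with overlapping arrays. For FOXF1, a forkhead transcription factor, the difference was -0.45 ± 0.23, for the hyaluronan-degrading protein CEMIP 0.32 ± 0.27 and for the adhesion molecule VCAM1 0.35 ± 0.25, again with overlapping arrays. None of these 5 was called. Of all 30 genes taken by name from the 100 µg/ml results, ANKRD11 was the 1 called at 10 µg/ml, and 28 had the same sign at both doses. The share with the same sign was 72.9% of all genes and 87.66% of those called at 100 µg/ml. It was 94.75% of those called with at least a 1.5-fold difference there. The arrays did not overlap for 11 of the 30, against 18.5% of all genes.

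The CXC chemokines, small secreted proteins of which those with an ELR motif attract neutrophils, had lower values for MWCNT than for TiO2-NB in most members. None of the 10 measured was called at 10 µg/ml, 2 of 10 had a difference above 0 (55.4% of all genes had), and the median was -0.26 against 0.015 over all genes. The arrays did not overlap for 3 lower members (CXCL3, CXCL5 and CXCL8) and 1 higher member (CXCL10), against 9.42% lower and 9.08% higher of all genes. The mean level of the list was 6.60 to 6.82 with MWCNT and 6.94 to 6.98 with TiO2-NB, without overlap, and 6.47 to 6.65 in the control.

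CXCL8, interleukin 8, was the brightest of them. It had 12.21, 12.22 and 12.45 with MWCNT, 12.59, 12.78 and 12.63 with TiO2-NB and 12.16, 12.14 and 12.24 in the control. CXCL3 had 7.76, 7.91 and 8.23 with MWCNT, 8.53, 8.36 and 8.45 with TiO2-NB and 7.70, 7.81 and 7.86 in the control. For both chemokines every TiO2-NB array lay above every MWCNT array and every control array, while MWCNT and control overlapped. The difference was -0.37 ± 0.11 for CXCL8 (adjusted p = 0.196 by limma) and -0.48 ± 0.15 for CXCL3 (adjusted p = 0.252 by limma). At 100 µg/ml it was -0.54 ± 0.11 and -1.93 ± 0.15, both called, and the widening with dose passed the test for CXCL3 (-1.45 ± 0.21, adjusted p = 0.000425 by limma) and not for CXCL8 (-0.16 ± 0.15, adjusted p = 0.732 by limma).

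CXCL5 gave the largest difference of the list, -0.75 ± 0.22, from a dim probe set. Its levels were 3.28, 3.73 and 3.28 with MWCNT and 4.18, 4.21 and 4.14 with TiO2-NB. The other 2 probe sets of CXCL5 failed the filter on dim values and differed by 0.04 and 0.12, so the 3 probe sets do not give the same sign. CXCL1 (-0.35 ± 0.23), CXCL2 (-0.20 ± 0.17) and CXCL6 (-0.28 ± 0.22), close relatives that attract neutrophils, had overlapping arrays. CXCL10, which is induced by interferon and attracts T cells, had 6.75, 6.73 and 6.65 with MWCNT and 6.29, 6.35 and 6.56 with TiO2-NB. Every MWCNT array of CXCL10 was the higher, with a difference of 0.31 ± 0.20 (adjusted p = 0.64 by limma), opposite to the neutrophil-attracting members.

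The promoters of 3 of the lower CXC genes are shown because they hold a motif that most members of the list share. They are the 250 bases before the gene start in RefSeq on GRCh38.p14, written 5′ to 3′ on the strand of the gene, with capitals for a kappaB site of the letters GGAATTTCC, searched on both strands. CXCL3 is at chr4:74038690-74038939 on the minus strand, CXCL5 at chr4:73998678-73998927 on the minus strand and CXCL8 at chr4:73740319-73740568 on the plus strand.
CXCL3: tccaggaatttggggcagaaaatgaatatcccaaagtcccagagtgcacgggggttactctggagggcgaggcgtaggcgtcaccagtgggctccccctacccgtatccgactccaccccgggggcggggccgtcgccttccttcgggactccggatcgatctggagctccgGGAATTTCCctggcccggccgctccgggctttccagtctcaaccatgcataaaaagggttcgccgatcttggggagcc
CXCL5: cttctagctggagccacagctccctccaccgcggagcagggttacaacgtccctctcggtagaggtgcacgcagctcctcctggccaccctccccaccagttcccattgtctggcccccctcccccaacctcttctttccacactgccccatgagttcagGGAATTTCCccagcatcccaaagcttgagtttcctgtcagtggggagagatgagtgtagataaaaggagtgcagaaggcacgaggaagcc
CXCL8: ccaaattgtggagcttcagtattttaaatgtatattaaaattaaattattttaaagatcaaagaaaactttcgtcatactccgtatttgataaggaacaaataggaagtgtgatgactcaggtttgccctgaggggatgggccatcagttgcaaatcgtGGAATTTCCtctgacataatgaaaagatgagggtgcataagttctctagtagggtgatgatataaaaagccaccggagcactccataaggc
These letters occurred in 7 of the 10 measured CXC genes, all 10 of which matched a RefSeq promoter, against 0.41% of all 35116 promoters of this length. The match begins 78 bases before the start in CXCL3, 90 in CXCL5 and 91 in CXCL8. CXCL10, which ran the other way, also holds a match, 176 bases before its start. A match is a description of the letters and does not say that the factor bound.

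Most genes of the aryl hydrocarbon receptor pathway had lower values with MWCNT than with TiO2-NB. The receptor is a ligand-activated transcription factor that induces cytochrome P450 enzymes of family 1. Of 8 measured members none was called at 10 µg/ml, 2 lay above 0 (55.4% of all genes did) and the median was -0.24, against 0.015 over all genes. The arrays did not overlap for CYP1A1, CYP1B1 and TIPARP, which were lower with MWCNT, and for ALDH3A1, an aldehyde dehydrogenase, which was higher (0.07 ± 0.10), where 9.42% of all genes had all MWCNT arrays lower and 9.08% higher. The mean level of the list was 7.91 to 8.02 with MWCNT and 8.14 to 8.23 with TiO2-NB, without overlap, and 8.07 to 8.12 in the control.

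CYP1B1, a P450 that oxidises polycyclic hydrocarbons and steroids, had 10.01, 9.84 and 10.22 with MWCNT, 10.66, 10.60 and 10.39 with TiO2-NB and 10.71, 10.74 and 10.59 in the control. TIPARP, an ADP-ribosyltransferase that the receptor induces and that represses it, had 9.45, 9.41 and 9.64 with MWCNT, 10.11, 10.00 and 9.95 with TiO2-NB and 9.89, 9.96 and 9.81 in the control. In both genes all MWCNT arrays lay below all TiO2-NB and control arrays, but neither gene was called with MWCNT against control. CYP1B1 differed by -0.53 ± 0.25 (adjusted p = 0.464 by limma) and TIPARP by -0.52 ± 0.20 (adjusted p = 0.372 by limma). The 4 kept probe sets of CYP1B1 differed by -0.05 to -0.98, all in 1 direction. At 100 µg/ml CYP1B1 differed by -2.58 and TIPARP by -1.91, both called, and the widening with dose passed the test in both (-2.05 ± 0.35 and -1.38 ± 0.28, adjusted p = 0.00158 and 0.00803 by limma). CYP1A1, the sister enzyme, was dim, with 4.58, 4.68 and 4.68 with MWCNT and 4.89, 5.20 and 5.00 with TiO2-NB, a difference of -0.38 ± 0.11 (adjusted p = 0.188 by limma).

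Interferon-stimulated genes, whose products block viral replication, were higher with MWCNT for most members. None of 31 was called at 10 µg/ml, 27 of 31 lay above 0 (55.4% of all genes did), and the median was 0.22 against 0.015 over all genes. The arrays did not overlap for 14 members, all higher with MWCNT, where 9.08% of all genes had all MWCNT arrays higher. An unadjusted p under 0.05 was found for 7 members, all higher, against 4.26% of all genes. The mean level of the list was 7.59 to 7.69 with MWCNT and 7.37 to 7.50 with TiO2-NB, without overlap, and 7.28 to 7.50 in the control.

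MX1, a GTPase that traps viral ribonucleoproteins, had 8.19, 8.14 and 8.11 with MWCNT, 7.86, 7.63 and 7.67 with TiO2-NB and 7.94, 7.80 and 7.14 in the control. IFI44L, an interferon-induced protein, had 5.49, 5.67 and 6.12 with MWCNT, 5.32, 5.18 and 5.49 with TiO2-NB and 5.60, 5.41 and 4.96 in the control. TRIM22, an antiviral ubiquitin ligase, had 6.77, 7.02 and 7.07 with MWCNT, 6.57, 6.49 and 6.69 with TiO2-NB and 6.43, 6.65 and 6.42 in the control. MX1 and TRIM22 were higher in every MWCNT array than in any TiO2-NB or control array, while the MWCNT arrays of IFI44L overlapped the control. The differences were 0.43 ± 0.22 for MX1, 0.43 ± 0.20 for IFI44L, 0.44 ± 0.20 for IFI44 and 0.37 ± 0.13 for TRIM22, with adjusted p from 0.334 to 0.531 by limma. IFI44L differed by 0.25 without MWCNT replicate 3, and IFI44 by 0.27 without TiO2-NB replicate 2. ISG15, a ubiquitin-like modifier, had 10.04, 9.99 and 10.07 with MWCNT and 9.81, 9.84 and 9.75 with TiO2-NB, a difference of 0.24 ± 0.12. At 100 µg/ml 23 of the 31 were called higher with MWCNT and none lower, with a median of 0.59, where 14% of all genes were called higher. The widening with dose passed the test for 2 members, TRIM22 (1.15 ± 0.19, adjusted p = 0.0014 by limma) and IFI44L (1.16 ± 0.29, adjusted p = 0.0355 by limma). IFI44L lost that call in 8 of the fits that left out 1 array (adjusted p from 0.0634 to 0.119).

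The promoters of 2 interferon-stimulated genes are shown for the same reason. They are from RefSeq on GRCh38.p14, 250 bases before the gene start, 5′ to 3′ on the strand of the gene. Capitals mark an interferon-stimulated response element made of GAAA, any 2 bases and GAAA again, or its reverse complement. IFI44L is at chr1:78620198-78620447 and IFIT1 at chr10:89392373-89392622, both on the plus strand.
IFI44L: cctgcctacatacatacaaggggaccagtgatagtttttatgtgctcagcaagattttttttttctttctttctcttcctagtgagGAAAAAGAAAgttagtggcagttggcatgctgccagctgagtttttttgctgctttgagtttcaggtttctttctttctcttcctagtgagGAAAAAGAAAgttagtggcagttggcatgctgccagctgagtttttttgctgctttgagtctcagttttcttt
IFIT1: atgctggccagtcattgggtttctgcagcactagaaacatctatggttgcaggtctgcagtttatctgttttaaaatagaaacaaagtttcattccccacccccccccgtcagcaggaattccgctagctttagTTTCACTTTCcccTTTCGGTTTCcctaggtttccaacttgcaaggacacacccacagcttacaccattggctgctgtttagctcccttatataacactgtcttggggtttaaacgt
The element occurred in 14 of the 23 interferon-stimulated genes with a RefSeq promoter, out of 31 measured, against 3.02% of all 35116 promoters. IFI44L holds 2 matches, 164 and 73 bases before its start, and IFIT1 holds 2, at 116 and 103 bases. IFIT1, which binds viral RNA, had 6.65, 6.73 and 6.53 with MWCNT and 6.33, 6.33 and 6.29 with TiO2-NB, so that the arrays did not overlap, with a difference of 0.32 ± 0.28 (adjusted p = 0.79 by limma). MX1 lacks these letters in the window.

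**Figure D3:**
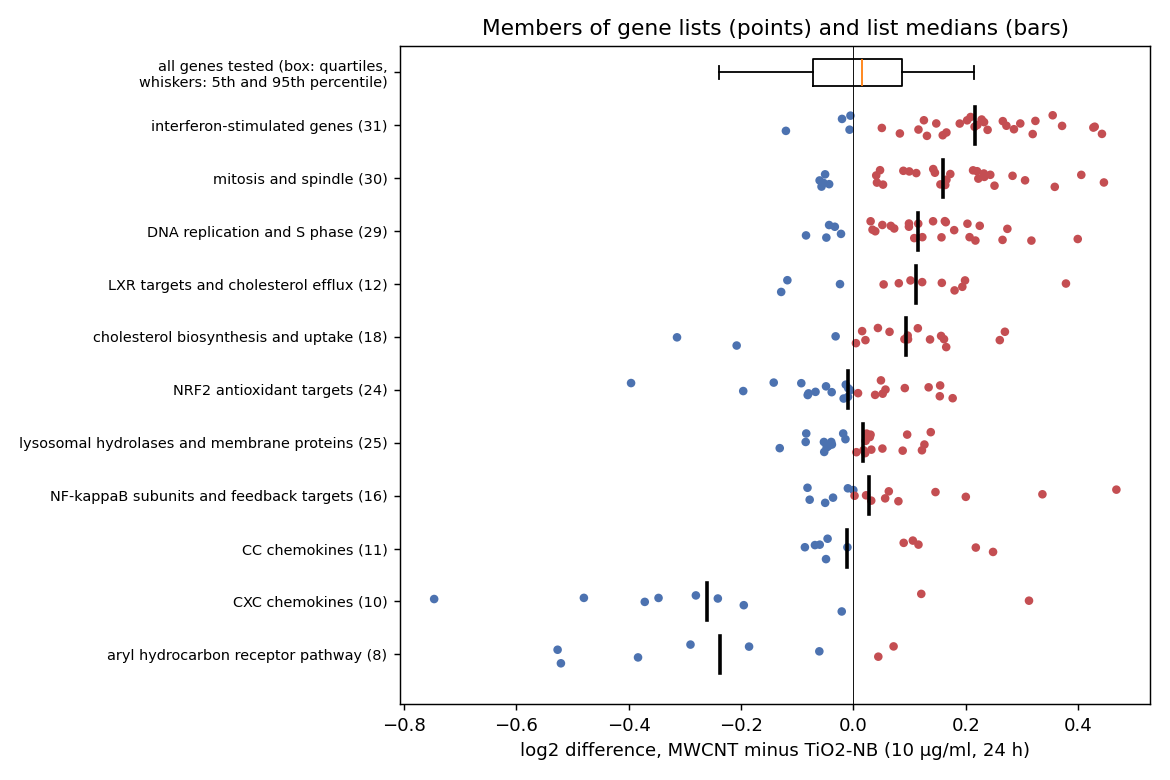
Log2 difference of MWCNT minus TiO2-NB at 10 µg/ml and 24 h (horizontal axis) of each member of 11 gene lists (points, red above 0 and blue below), with the list median as a bar, the number measured in brackets and a box for all tested genes. Interferon-stimulated genes have a median of 0.22, CXC chemokines of -0.26 and aryl hydrocarbon receptor genes of -0.24, while NRF2 targets, lysosomal genes and CC chemokines lie around the median of all genes, 0.015.

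Cell cycle genes leaned to the MWCNT side with uneven array values. Of 30 genes of mitosis and spindle 25 lay above 0, with a median of 0.16, none called, and the arrays did not overlap for 7, all higher with MWCNT, against 9.08% of all genes. Over all genes 55.4% lay above 0. AURKB, a kinase of chromosome segregation, had 4.59, 5.07 and 4.90 with MWCNT and 4.48, 4.17 and 4.57 with TiO2-NB, a difference of 0.45 ± 0.21 (adjusted p = 0.463 by limma). NDC80, a kinetochore subunit that binds microtubules, differed by 0.41 ± 0.22. Of 29 genes of DNA replication 24 lay above 0, with a median of 0.115, but the arrays overlapped for all 29. Their mean level ran from 7.08 to 7.56 with MWCNT and from 6.93 to 7.52 with TiO2-NB, and the median was -0.012 without MWCNT replicate 3 and 0.308 without TiO2-NB replicate 3. The replicate 3 arrays were the highest for genes such as MCM5, a subunit of the replicative helicase, with 8.0, 8.12 and 8.56 with MWCNT and 7.84, 7.85 and 8.49 with TiO2-NB.

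Among lipid genes the differences were small. Of 18 cholesterol synthesis and uptake genes 15 lay above 0, with a median of 0.09 and none called. EBP, a sterol isomerase, had 9.18, 9.21 and 9.05 with MWCNT and 9.0, 8.85 and 8.80 with TiO2-NB, a difference of 0.26 ± 0.08 (adjusted p = 0.196 by limma). FDPS, which makes farnesyl diphosphate, differed by 0.17 ± 0.06 and MVK, mevalonate kinase, ran the other way at -0.31 ± 0.09, each with arrays that did not overlap. HMGCS1, which condenses acetyl units into HMG-CoA, differed by 0.02 ± 0.11. Of 12 LXR targets and cholesterol efflux genes 9 lay above 0, with a median of 0.11, and the arrays of 4 did not overlap, all higher with MWCNT (APOE, APOC1, LPCAT3 and PLTP), against 9.08% of all genes. ABCG1, a cholesterol exporter, differed by 0.19 ± 0.32.

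Inflammatory and stress genes that a macrophage response to particles could involve did not pass the test. The differences were -0.06 ± 0.20 for IL1B (95% interval -0.48 to 0.35), -0.08 ± 0.21 for TNF (-0.51 to 0.34) and -0.05 ± 0.22 for the monocyte attractant CCL2 (-0.49 to 0.40). HMOX1, which degrades heme, differed by 0.05 ± 0.11 (-0.17 to 0.27), MT2A, a metallothionein, by 0.01 ± 0.11 (-0.21 to 0.23) and CDKN1A, an inhibitor of cyclin-dependent kinases, by -0.05 ± 0.10 (-0.26 to 0.15). IL1B was near the top of the scale, at 13.68, 13.65 and 13.35 with MWCNT and 13.79, 13.73 and 13.35 with TiO2-NB, where the arrays reached 14.42. List medians were -0.01 for 16 inflammatory cytokines, -0.01 for 11 CC chemokines, 0.03 for 16 NF-kappaB subunits and feedback targets, 0.01 for 12 inflammasome genes, -0.01 for 24 NRF2 antioxidant targets and 0.02 for 25 lysosomal genes, and none of their members was called.

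The differences at 10 µg/ml were then set beside those at 100 µg/ml after 24 h, which come from 6 other arrays. The test called 2505 genes at 100 µg/ml (24.9%), 1411 higher with MWCNT (14%) and 1094 lower (10.9%). Median centring of the arrays gave a split of 1230 higher of 2607. Of the 2505 genes 2196 (87.7%) had the same sign at 10 µg/ml, against 72.9% of all genes, and the correlation of the differences over all genes was 0.629. Genes are not independent replicates, so no p is given for these shares. Among the 1411 genes called higher with MWCNT at 100 µg/ml the median difference was 0.129 at 10 µg/ml and 0.415 at 100 µg/ml. Among the 1094 called lower it was -0.074 at 10 µg/ml and -0.34 at 100 µg/ml. Of the 495 called genes (4.93%) with at least a 1.5-fold difference at 100 µg/ml 469 had the same sign at 10 µg/ml, and none had a larger difference there. These sets were chosen by their values at 100 µg/ml, which favours larger differences at that dose. Over all genes, without that choice, the median size of the difference was 0.08 at 10 µg/ml and 0.159 at 100 µg/ml.

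Of the 1033 genes with an unadjusted p under 0.05 at 10 µg/ml, 494 were called at 100 µg/ml. This is 47.8% of the first list, against 24.9% of all genes called at 100 µg/ml. It is 19.7% of the second list, against 10.3% of all genes with an unadjusted p under 0.05 at 10 µg/ml. All 494 had the same sign at both doses, as did 978 of all 1033 (94.68%). The difference after 1 h at 10 µg/ml more often had the opposite sign to that after 24 h. At 1 h no gene was called by limma, 264 had an unadjusted p under 0.05 (2.63%), and 37.9% of all genes had the sign they had after 24 h. The correlation of the 1 h and 24 h differences over all genes was -0.211. Of the 1033 genes, 290 had the same sign after 1 h. The cause of this opposite order was not tested.

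**Figure D4:**
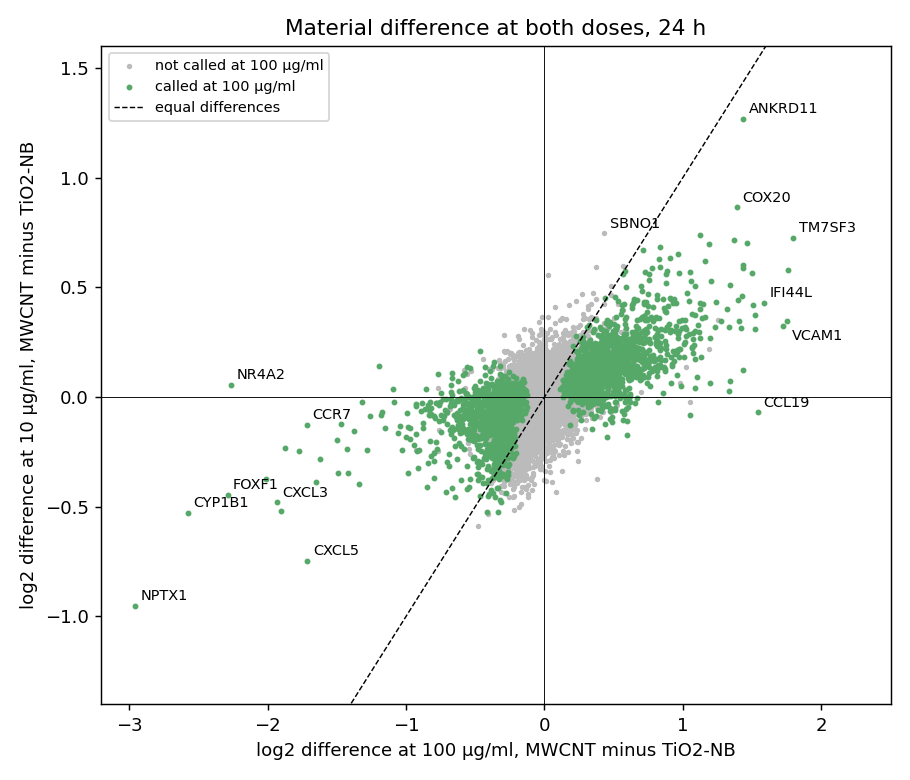
Log2 difference of MWCNT minus TiO2-NB at 100 µg/ml (horizontal axis) and at 10 µg/ml (vertical axis), both after 24 h, for all tested genes, with the 2505 genes called at 100 µg/ml in green and a dashed line of equal differences. Most called genes have the same sign at both doses (87.7%) and lie closer to 0 at 10 µg/ml, while ANKRD11 lies near the dashed line. The called genes were chosen at 100 µg/ml, which favours larger differences at that dose.

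The change of the material difference with dose was tested directly. It passed for 179 genes (1.78%), 71 positive (0.706%) and 108 negative (1.07%), and for all 179 the difference was larger in size at 100 µg/ml. After median centring 53 of 191 were positive. Of the 179, 136 had the same sign at both doses, where 72.9% of all genes had. CCR7, a chemokine receptor of migrating dendritic cells, was at 4.95, 4.56 and 4.80 with MWCNT and 4.92, 4.73 and 5.04 with TiO2-NB at 10 µg/ml. Its arrays overlapped at that dose (-0.13 ± 0.17), and at 100 µg/ml the difference was -1.72 ± 0.17, a change of -1.59 ± 0.24 (adjusted p = 0.000425 by limma). CCL19, a ligand of that receptor, was at 4.85, 4.69 and 4.75 with MWCNT and 4.98, 4.79 and 4.72 with TiO2-NB at 10 µg/ml, a difference of -0.07 ± 0.20, and it differed by 1.54 ± 0.20 at 100 µg/ml, a change of 1.61 ± 0.28 (adjusted p = 0.00177 by limma). The differences of receptor and ligand thus changed with dose in opposite directions, and at 10 µg/ml the intervals of both, -0.47 to 0.22 for CCR7 and -0.47 to 0.33 for CCL19, held 0. NEU1, a lysosomal sialidase, and MSMO1, a methylsterol monooxygenase, gave narrow intervals at 10 µg/ml, -0.22 to 0.05 and -0.09 to 0.22, and differed by -0.72 and 0.92 at 100 µg/ml.

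The change of the material difference between 1 h and 24 h at 10 µg/ml was called for no gene by limma, with 980 genes at an unadjusted p under 0.05 (9.75%) and a lowest adjusted p of 0.0691. ANKRD11 changed by 1.03 ± 0.28 (adjusted p = 0.216 by limma), so its difference at 24 h was not shown to exceed that at 1 h. Without MWCNT replicate 3 of the 24 h group 6 genes were called in this comparison.

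Against the 24 h control, few genes were called with either material at 10 µg/ml. MWCNT gave no called gene, with 421 at an unadjusted p under 0.05 (4.19%) and a lowest adjusted p of 0.434. TiO2-NB gave 2 (0.0199%), both lower, ANKRD11 and TMEM50B, and 474 at an unadjusted p under 0.05 (4.72%). Neither gene was called with only the groups compared or in either fit of 9 arrays. TMEM50B also lost its call with only the 24 h arrays, with the trended variance, and without TiO2-NB replicate 2 or 3 or control replicate 2 or 3. TMEM50B, a small membrane protein, had 8.45, 8.55 and 8.39 with MWCNT, 8.33, 8.26 and 8.26 with TiO2-NB and 8.52, 8.64 and 8.59 in the control. It fell by 0.30 with TiO2-NB against control (adjusted p = 0.024 by limma) and differed by 0.18 ± 0.05 between the materials (adjusted p = 0.192 by limma). TiO2-NB arrays of TMEM50B lay below all others and MWCNT arrays overlapped the control. The CXC list had a median of 0.15 with MWCNT and 0.45 with TiO2-NB against the shared control, the aryl hydrocarbon receptor list -0.08 and 0.11, and the interferon list 0.19 and 0.05.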

How the data were processed

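RNA was measured on 30 Affymetrix 3′ expression arrays, 3 for each of 10 groups of material, dose and time as labelled. RMA, named without a version in the submitters' processing notes, is how the authors made the deposited log2 intensities of probe sets. They ran from 1.89 to 14.42 with array medians of 6.35 to 6.46 and were not normalized again. Arrays give no read depth, and their number limits the precision. Of 22277 probe sets 62 were control features, and 19064 of the others matched 1 gene in the platform annotation, 1043 several and 2108 none. Kept were 15312 probe sets that exceeded the 25th percentile of their array in 3 or more arrays, and each gene was represented by its brightest kept probe set on average. All 10050 genes were fitted at once with limma 3.58.1 in R 4.3.3, with 10 group means over 30 arrays and 20 residual degrees of freedom, which was tested on simulated data. The two-sided p was adjusted by Benjamini-Hochberg within a comparison, and a gene was called under 0.05. Errors of differences are SE, and intervals are 95%.

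The members, gene lists and naming rule were chosen with earlier results of these data known. The rule named the 14 largest called differences of each direction, the 6 largest of each direction in the changes with dose and time, up to 4 called members of a list, the 30 genes reported at 100 µg/ml, and 9 genes on cytokines, stress and lipids (TNF, CCL2, IL1B, CXCL8, CDKN1A, MT2A, HMOX1, HMGCS1, ABCG1). Lists are described by counts and medians, with no list test. The lists without a result in the text had no called member at 10 µg/ml. Equal replicate numbers were checked as pairs in the 24 h control and both 10 µg/ml groups. The deviations of all 9 such pairs correlated above 0.1, from 0.106 to 0.699, and other pairs correlated from -0.558 to 0.508. The replicate 3 arrays correlated at 0.652 to 0.699 with each other. MWCNT replicate 1 correlated at 0.508 with TiO2-NB replicate 2 and at 0.193 with TiO2-NB replicate 1. MWCNT replicate 2 correlated at 0.473 with TiO2-NB replicate 1 and at 0.185 with TiO2-NB replicate 2. A pairing of replicates 1 and 2 between the materials was thus not shown. Promoters were read from the RefSeq table for GRCh38.p14. Alternatives were median centring, cyclic loess, other filters, the mean of probe sets, fewer arrays, a trended robust variance, the replicate block and leaving out each array.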

Additional observations from a re-analysis of the deposited data

Results flagged for a closer look

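For 18 of the named genes the difference between MWCNT and TiO2-NB changed between 10 and 100 µg/ml by the test of that change (adjusted p under 0.05 by limma). The log2 change, 100 minus 10 µg/ml, was negative for CYP1B1 (-2.05), NPTX1 (-2.0), FOXF1 (-1.84), IL24 (-1.64), NR4A3 (-1.63), CCR7 (-1.59), CXCL3 (-1.45), CXCL2 (-1.3) and NEU1 (-0.64). It was positive for MSMO1 (0.85), PDGFRA (1.02), TM7SF3 (1.07), SPINK1 (1.13), TRIM22 (1.15), IFI44L (1.16), DAZL (1.3), VCAM1 (1.4) and CCL19 (1.61). At 10 µg/ml none of the 18 was called. IL24, a cytokine of the interleukin 10 family, differed there by -0.23 ± 0.16, and NR4A3, an orphan nuclear receptor, by -0.37 ± 0.26. DAZL, an RNA-binding protein of germ cells, and SPINK1, a trypsin inhibitor, were dim at 10 µg/ml, with means of 3.46 and 4.17 with MWCNT and 3.43 and 4.25 with TiO2-NB. PDGFRA, a growth factor receptor, differed by 0.32 ± 0.15 at 10 µg/ml and by 1.33 ± 0.15 at 100 µg/ml. Its second kept probe set differed by -0.142 at 10 µg/ml, and the mean of both by 0.088. The naming rule took the 6 largest called changes of each direction from this same test, so the passing of those genes was fixed in advance. Over all genes 1.78% passed. Several of the 18 genes were also taken by name from the 100 µg/ml results, so their large differences there were known. Of the 18, 6 lost the call under at least 1 alternative by limma: TM7SF3 with an adjusted p of up to 0.12, VCAM1 of up to 0.148, IFI44L of up to 0.119, SPINK1 of up to 0.0937, NR4A3 of up to 0.0712 and PDGFRA of up to 0.0593.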

How the results depend on the processing

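The main count of 1 gene stayed at 1 under median centring, cyclic loess, both other filters, the mean of probe sets, the trended robust variance and the replicate block over all 30 arrays. It was 4 with only the 24 h arrays fitted, and 0 with only the groups compared, with the 9 arrays of the control and both 10 µg/ml groups, and with a replicate block over those 9 arrays (0 genes called, 1746 at an unadjusted p under 0.05, against 1136 in the same 9 arrays without the block). The fit of 9 arrays without the block was added after seeing the data. Leaving out 1 array gave 0 to 1 genes. For the other counts that range was 1797 to 2325 at 100 µg/ml, 0 to 0 after 1 h, 94 to 204 for the change with dose, 0 to 6 for the change with time, 0 to 0 for MWCNT and 1 to 3 for TiO2-NB against control. At 100 µg/ml 1776 genes were called with only the groups compared. The change with dose was called for 97 genes without MWCNT replicate 1 and 118 without replicate 2 at 10 µg/ml, 95 and 94 without MWCNT replicates 2 and 3 and 103 without TiO2-NB replicate 3 at 100 µg/ml. With only the 24 h arrays MWCNT against control gave 1 gene, CCL4, and TiO2-NB against control gave 3, CCL4, SYK and ANKRD11. TiO2-NB against control gave 1 with the trended variance, and 0 with only the groups compared and in both fits of 9 arrays. The share of genes called at 100 µg/ml with the same sign at 10 µg/ml was 85.65% with median centring, 89.13% with only the groups compared, and 83.31% to 88.82% without 1 array. List medians without 1 array were 0.149 to 0.251 for interferon genes, -0.348 to -0.167 for CXC chemokines, -0.289 to -0.19 for the aryl hydrocarbon receptor pathway, 0.122 to 0.204 for mitosis and -0.012 to 0.308 for DNA replication. With the stricter filter the aryl hydrocarbon receptor median was -0.186. The causes of these moves were not tested beyond the smaller number of arrays or genes.

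No called difference changed sign, and of the 742 values of named genes in this comparison under an alternative 7, all of ANKRD11, lost the call. A sign change occurred in 27 of them, in 12 genes that were not called. The replicate block changed no call between the materials at this dose and time. Precision is limited by 3 arrays a group. Dim probe sets, such as those of CXCL5 and TEKT2, lie near the lower end of the scale, where differences are compressed.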

Other observations

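Some further groups were described by value only. Of the 18 genes of ribosome biogenesis 15 lay above 0, with a median of 0.06 at 10 µg/ml and 0.19 at 100 µg/ml, and of 25 nuclear-encoded oxidative phosphorylation genes 20 did, with a median of 0.05, against 55.4% of all genes above 0. None of them was called at 10 µg/ml. Of 17 growth factor and fibrosis genes the arrays did not overlap for 3 lower with MWCNT, TGFA, IGF1 and HGF, and for 2 higher, BMP2 and CCN2, against 9.42% lower and 9.08% higher of all genes. IGF1, insulin-like growth factor 1, had 5.60, 5.55 and 5.66 with MWCNT and 5.84, 6.02 and 5.98 with TiO2-NB, a difference of -0.34 ± 0.09 (adjusted p = 0.165 by limma). HGF, hepatocyte growth factor, had 5.42, 5.42 and 5.62 with MWCNT and 5.68, 5.84 and 5.78 with TiO2-NB, a difference of -0.28 ± 0.08 (adjusted p = 0.196 by limma). CD80, a costimulatory ligand for T cells, had 5.02, 4.93 and 5.36 with MWCNT and 5.38, 5.54 and 5.43 with TiO2-NB, a difference of -0.35 ± 0.10 (adjusted p = 0.196 by limma). All of these levels are below the array medians of 6.35 to 6.46, where genes with MWCNT lower were the more frequent.

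CCL4, a chemokine for monocytes and T cells, had every array of both materials above every control array, and the arrays of the materials overlapped. It had 9.37, 9.52 and 9.32 with MWCNT, 9.58, 9.44 and 9.34 with TiO2-NB and 8.39, 8.56 and 8.79 in the control. The difference between the materials was -0.05 ± 0.23 (95% interval -0.52 to 0.42), and neither comparison with control was called in the fit of all arrays. With only the 24 h arrays fitted, CCL4 was called against control with both materials (adjusted p = 0.00727 with MWCNT and 0.00191 with TiO2-NB by limma).

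A group of 167 genes with ZNF symbols was formed after their values were seen. It had a median of 0.03, against 0.015 over all genes, and 101 lay above 0, where 55.4% of all genes did. At an unadjusted p under 0.05, 18 were higher and 11 lower with MWCNT, against 4.26% higher and 6.02% lower of all genes.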
